A study of Ovis aries with 18 samples.

Results

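The CYP4F locus of the sheep testis was followed through 4 Ensembl gene IDs, ENSOARG00000001217, ENSOARG00000001451, ENSOARG00000001856 and ENSOARG00000002708, in 18 lambs. The 4 IDs were selected on their difference between the maternal diets and on having the same read count as each other in every lamb, so they were read as 1 profile. They are 4 of the 29589 IDs in the count tables, of which 18640 passed the filter on low counts, the 4 members among them. The first ID was paired with CYP4F21 and the others with further CYP4F labels in earlier work on these data, since the tables hold IDs without gene symbols.

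Both groups were male Santa Inês lambs of 60 days of age, 9 from ewes on a corn and soybean diet (control) and 9 from ewes fed gossypol-rich cottonseed from conception until 60 days after birth. Gossypol is a polyphenol of the cotton plant that impairs spermatogenesis. The lambs of both groups nursed and had access to the same concentrate without cottonseed, so the diets named here are those of the mother. The study reported lower milk intake, final body weight and gonadosomatic index in the gossypol lambs. These differences go with the diet in every comparison of the groups. One poly-A RNA library was sequenced from the testis of each lamb, and the lambs are separate animals.

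CYP4F enzymes belong to the cytochrome P450 family, haem-containing monooxygenases of the endoplasmic reticulum that take electrons from NADPH-cytochrome P450 reductase. They add a hydroxyl group at or near the end of the carbon chain of fatty acids and of eicosanoids such as leukotrienes and prostaglandins. CYP4F21 is the sheep enzyme known from the vesicular gland, where it hydroxylates prostaglandin E at the end of its chain. The genes of the family lie close together and are similar in sequence.

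The total count per lamb lay between 14468612 and 22334428 in the control group, with a median of 19271048, and between 15240624 and 20660132 in the gossypol group, with a median of 19037075. No 2 libraries of a diet agreed within sampling noise. The tissue could not be checked against marker lists because the IDs carry no symbols, but FATE1, a gene expressed mainly in testis and adrenal gland, had at least 347 counts in every lamb. In this bulk tissue, fewer cells of a type and less RNA per cell cannot be told apart. The 9 control lambs fell into separate clusters of 5 and 4 on the first principal component of all tested IDs, which held 51.1% of their variance. The 5 lambs H06, H20, H22, H29 and H37 scored between 25.4 and 59.7, and the 4 lambs H31, H32, H39 and H44 between -60.0 and -46.0. In the gossypol group, whose first component held 36.5% of the variance, H41 at -96.4 and H01 at -51.9 stood apart from the other 7 lambs, which scored between 0.213 and 41.2.

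The 4 IDs stood in 4 adjacent rows of the tables and their counts were identical in 18 of 18 lambs. Such sharing was not limited to this locus. Over all IDs there were 887 groups with identical counts, and 84 of them held 4 or more IDs. Of the 598 groups with a mean count of at least 100, 598 stood in adjacent rows and 0 held an ID assembled by the study (XLOC). With a shared count, no member can be ranked against another. In the RefSeq annotation of a later assembly, ARS-UI_Ramb_v3.0, CYP4F21 on chromosome 5 was the only gene with a CYP4F symbol, and 6 protein-coding genes without a symbol stood between it and PGLYRP2. How the counter came to give the same number to 4 IDs was not tested.

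The locus was higher in the testis of control lambs than of gossypol lambs. Its level is given in CPM, the count of a lamb relative to its library size after scaling by TMM. Among the control lambs the level was 92.4 in H22, 84.4 in H29, 59.0 in H20, 57.4 in H37, 55.8 in H06, 35.8 in H31, 34.97 in H32, 30.3 in H39 and 18.7 in H44. Among the gossypol lambs it was 27.5 in H12, 24.4 in H48, 24.1 in H01, 22.4 in H10, 15.3 in H25, 13.6 in H47, 11.98 in H35, 7.83 in H41 and 7.65 in H08. The 5 control lambs with the highest levels were the 5 lambs of one cluster of the first principal component, and the 4 of the other cluster followed below them.

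The groups overlapped through a single control lamb, since 8 of 9 control lambs were above the highest gossypol lamb and H44 was within the gossypol range. Of the gossypol lambs, 4 were above H44 and 5 below it. The separation between the next control lamb and the gossypol group was small. The 95% Poisson interval of H39 was 27.5 to 33.2 CPM and that of H12, the highest gossypol lamb, was 25.2 to 29.8 CPM, so these neighbours did not differ beyond counting error. The interval of H44 was 16.98 to 20.6 CPM. Of all tested IDs, 0.0483% had at least 8 of 9 control lambs above the highest gossypol lamb. These were 9 IDs with 6 distinct profiles, and 4 of the 9 IDs were the members. The reverse order, at least 8 of 9 gossypol lambs above the highest control lamb, was also found in 0.0483% of the IDs. These values are descriptions, because the locus was chosen by this contrast.

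**Figure D1:**
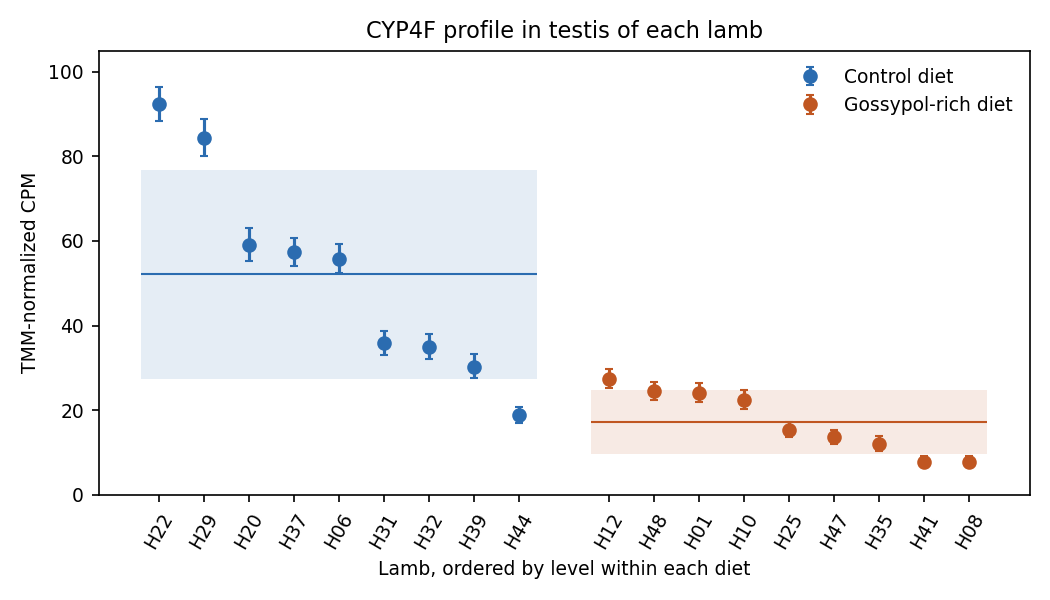
CYP4F level in CPM after TMM scaling, 1 point per lamb for 9 control and 9 gossypol lambs, with 95% Poisson intervals of the counts as bars and the mean and SD of each diet as a line and a shaded band. The control lambs ran from 18.7 to 92.4 CPM and the gossypol lambs from 7.65 to 27.5 CPM, and only control lamb H44 was within the gossypol range.

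The mean level was 52.1 ± 24.8 CPM (SD, n = 9) in the control group and 17.2 ± 7.54 CPM (SD, n = 9) in the gossypol group, a ratio of 3.03. The fitted log2 fold change of gossypol against control was -1.60 (SE 0.30). The edgeR quasi-likelihood test called the 4 IDs, 1 profile, lower in the gossypol group at a false discovery rate of 10%. It called 1.27% of the tested IDs in this direction. The locus was chosen by this contrast, so its call is a description and no test. The number of IDs called in either direction, 332 here, depended on the method, from 0 with limma-voom to 2289 with the total count as covariate, and on single lambs, from 0 to 3591 without H44 (2963 without H48). At a false discovery rate of 5% the edgeR quasi-likelihood test called 0 IDs, with 4327 at an unadjusted p under 0.05, limma-voom 0, the edgeR exact test 645 and DESeq2 882. Leaving out 1 lamb at a time kept the log2 fold change of the locus between -1.72 without H44 and -1.45 without H22.

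The spread within each diet was wide. The highest level was 4.93 times the lowest among the control lambs and 3.59 times the lowest among the gossypol lambs. The SD of log2 CPM was 0.74 in the control group, where 86.2% of the 17922 distinct profiles had a smaller SD, and 0.70 in the gossypol group, where 82.3% did. The medians over all profiles were 0.40 and 0.43. Counting error alone gives a relative error between 2.18 and 4.89% in the control lambs and between 4.21 and 8.58% in the gossypol lambs, so the spread was well beyond counting error. The total count of the library had r = 0.418 with the level in the control lambs, and r = 0.484 in the gossypol lambs, which did not pass (exact permutation adjusted p = 0.425).

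The relation of the locus to 17 genes was then read within each diet, over 9 lambs at a time. The study's text names these genes apart from GFRA3. Of the 17 genes, 11 were lower and 6 higher in the gossypol group, and all were known from the same contrast that chose the locus. The level between lambs of 1 diet does not use that difference. Among the control lambs, a pooled correlation carries the step between the 2 clusters, which are too small to be tested apart, so r is given there as a measure of likeness only. The tests were made in the gossypol lambs, which were not uniform either. Their CYP4F level stepped from 22.4 CPM in H10 to 15.3 CPM in H25, and H41 and H01 stood apart on the first principal component. The part of this in the relations was not tested. In these lambs 1 of 17 relations, that of ADAM11, passed an exact permutation test at an adjusted p under 0.05. The adjustment was made over these 17 relations and was chosen after seeing the data. Over the 34 relations of both diets, the family first planned, 6 of 17 passed. That family holds the p-values of the control lambs, which carry the step between the clusters. The share of all profiles that would pass was not computed, so neither count can be set against the whole table.

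ADAM11, a catalytically inactive member of the ADAM family of membrane proteins, had the relation to CYP4F with the smallest p among the gossypol lambs. Its level there was 214 CPM in H01, 168 in H48, 103 in H12, 54.4 in H10, 38.99 in H25, 34.2 in H47, 31.6 in H35, 16.8 in H08 and 16.6 in H41. The 4 lambs with the highest ADAM11 were also the 4 with the highest CYP4F, so r carries the step in CYP4F below H10. Pearson's r was 0.914 and Spearman's rho 0.917 (n = 9, exact permutation test, p = 0.00097, adjusted p = 0.0165). Without H08 and H41, the 2 lambs farthest from the median CYP4F level, r was 0.845. With 1 gossypol lamb left out r stayed between 0.892 and 0.945, and the relation passed in 8 of 9 sets, the exception being without H25.

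In the control lambs ADAM11 was 1539 CPM in H29, 1351 in H22, 1008 in H20, 988 in H06, 515 in H37, 151 in H32, 139 in H31, 102 in H39 and 33.6 in H44. The likeness with CYP4F was r = 0.973. ADAM11 thus ranged much more widely than CYP4F, which changed 4.93-fold over the same lambs. Lambs of different diets with near ADAM11 levels can be set side by side. Control lamb H44 and gossypol lamb H47 had ADAM11 at 33.6 and 34.2 CPM and CYP4F at 18.7 and 13.6 CPM. Control lamb H39 and gossypol lamb H12 had ADAM11 at 102 and 103 CPM and CYP4F at 30.3 and 27.5 CPM. Control lamb H32 and gossypol lamb H48 had ADAM11 at 151 and 168 CPM and CYP4F at 34.97 and 24.4 CPM. In each of these pairs the control lamb was the higher in CYP4F, for H39 and H12 within counting error. The control lambs of these pairs all came from the cluster with the lower CYP4F levels. The size of these differences therefore cannot be set against the difference between the diet means.

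With log2 ADAM11 as a covariate, the CYP4F difference between the diets was -0.44 on the log2 scale (SE 0.16) in place of -1.60. It lay between -0.53 and -0.38 when single lambs were left out. With the first principal component of the 18 lambs as covariate, a setting chosen after seeing the data, it was -0.68 (SE 0.20). ADAM11, the component and the diet moved together in these lambs, so their parts in the CYP4F level cannot be told apart.

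**Figure D2:**
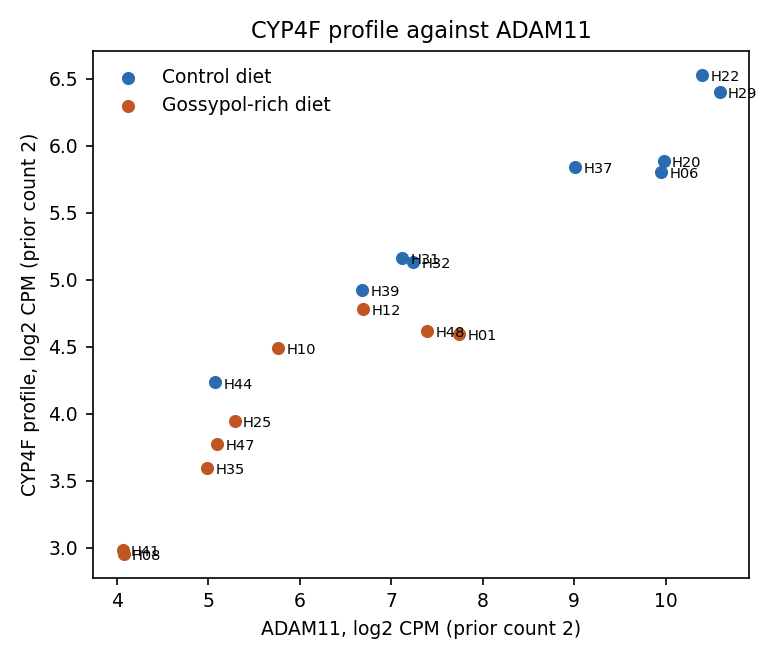
CYP4F level against ADAM11 level, both in log2 CPM with a prior count of 2, with 1 labelled point per lamb coloured by diet. The lambs of both diets rise together from H08 and H41 with the lowest ADAM11 to H29 with the highest, and CYP4F covers a much narrower range than ADAM11 (7.65 to 92.4 CPM against 16.6 to 1539 CPM).

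None of the other 10 genes that were lower in the gossypol group passed in the gossypol lambs, and the largest r among them were those of MAP3K15 and KIAA1210. MAP3K15, a kinase of the MAP kinase cascade, was between 1.94 and 10.5 CPM there, with r = 0.735 and rho = 0.70 (n = 9, exact permutation p = 0.0169, adjusted p = 0.0721). KIAA1210, a gene with high expression in testis, was between 2.21 and 19.3 CPM, with r = 0.709 and rho = 0.750 (exact permutation p = 0.0299, adjusted p = 0.0848). Without the 2 farthest lambs r was 0.860 for MAP3K15 and 0.803 for KIAA1210. With 1 lamb left out r lay between 0.619 and 0.932 for MAP3K15 and between 0.629 and 0.772 for KIAA1210.

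FATE1 had r = 0.701 in the gossypol lambs (exact permutation adjusted p = 0.0907), the channel subunit LRRC8B r = 0.637, the MAGE family gene MAGEB18 r = 0.593 and the bicarbonate transporter SLC4A5 r = 0.534. The cystatin-like gene CST9L and the prion-like gene PRND had r = 0.423 and r = 0.348. VSIG1, a cell adhesion molecule of the immunoglobulin superfamily, had r = 0.00096 over levels between 0.692 and 1.95 CPM. MAGEA10, the other MAGE family gene, had r = -0.607, the only negative value among the 11 lower genes. Its level in the gossypol lambs was low, between 2.05 and 6.05 CPM (38 to 112 counts). In the control lambs the likeness of the 11 genes lay between r = 0.728 for VSIG1 and r = 0.975 for CST9L, and MAGEA10 had r = 0.845. Whether the relation of MAGEA10 to CYP4F differs between the diets was not tested.

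The 6 genes that were higher in the gossypol group had negative r with CYP4F in both diets, and none passed in the gossypol lambs. CDH23, a cadherin of sensory hair cell links, had r = -0.817 and rho = -0.750 in the gossypol lambs (n = 9, exact permutation p = 0.00695, adjusted p = 0.0591), r = -0.722 without the 2 farthest lambs, and r between -0.884 and -0.782 with 1 lamb left out. Its level was between 22.6 and 116 CPM in the gossypol lambs and between 16.0 and 47.8 CPM in the control lambs. CACNG4, an auxiliary subunit of calcium channels and AMPA receptors, had r = -0.771 and rho = -0.767 (exact permutation adjusted p = 0.0721) and r = -0.919 without the 2 farthest lambs. SMOC2, a secreted calcium-binding matrix protein, had r = -0.746 with the same adjusted p of 0.0721 by exact permutation. The SMOC2 value rested on the 2 farthest lambs, since r was -0.246 without them and rho was -0.483 over all 9.

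The receptor ERBB3, the transporter SLC47A1 and the co-receptor GFRA3 had r of -0.583, -0.569 and -0.547 in the gossypol lambs. In the control lambs the 6 genes had r between -0.907 for CDH23 and -0.580 for SMOC2. Without H39 and H44, the 2 control lambs farthest from the median CYP4F level, r was -0.0998 for SMOC2, -0.521 for ERBB3 and -0.541 for GFRA3, while the other 3 lay between -0.90 for CDH23 and -0.718 for CACNG4. Without H44 alone r was -0.214 for SMOC2. The number of these genes at r of at least 0.7 or at most -0.7 is set here beside the share of all distinct profiles. Of the 11 lower genes, 11 had r of at least 0.7 in the control lambs, where 15.9% of all distinct profiles did, and 4 in the gossypol lambs, where 3.98% did. Of the 6 higher genes, 5 had r of at most -0.7 in the control lambs, where 17.6% of all profiles did, and 3 in the gossypol lambs, where 3.58% did. The genes were named with these lambs' data in view, so these counts describe the list only.

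**Figure D3:**
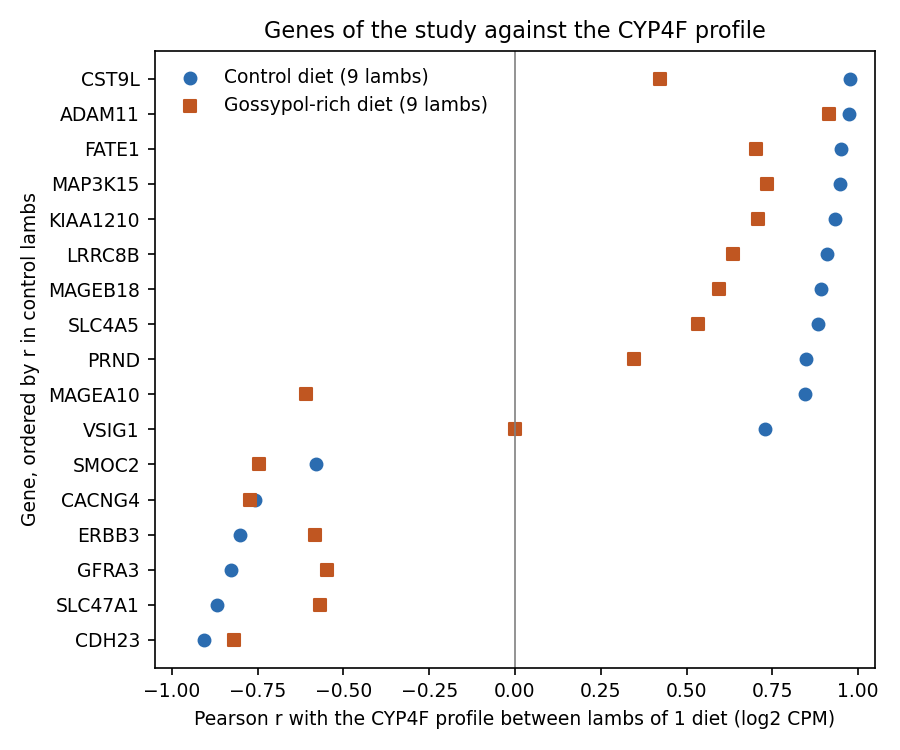
Pearson r of log2 CPM with the CYP4F profile for each of the 17 named genes, over 9 control lambs and over 9 gossypol lambs, with 0 marked. In the control lambs the 11 genes lower in the gossypol group were all above 0.7 and the 6 higher genes below -0.5, and in the gossypol lambs ADAM11 was highest and CDH23 lowest while MAGEA10 changed sign.

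Outside the named genes, the distinct profiles were ordered by their r with CYP4F within each diet. In the control lambs the closest was ENSOARG00000019810, with r = 0.983 and a level between 15.3 and 181 CPM, followed by XLOC_013357, also with r = 0.983, at 12 to 121 counts per lamb. The opposite end was held by ENSOARG00000004033 (r = -0.986, 5.83 to 11.3 CPM) and ENSOARG00000016194 (r = -0.984, 1.18 to 5.23 CPM). These r chose the profiles and are no test. In the gossypol lambs, which did not enter that choice, ENSOARG00000019810 had r = 0.893 and rho = 0.917 (n = 9, exact permutation adjusted p = 0.00354 over the 10 relations read in the gossypol lambs) and r = 0.832 without the 2 farthest lambs. The other 3 did not pass there. XLOC_013357 had r = 0.608 (exact permutation adjusted p = 0.108), ENSOARG00000016194 r = -0.698 (exact permutation adjusted p = 0.0543) and ENSOARG00000004033 r = -0.385 (exact permutation adjusted p = 0.344). Taking the 5 closest and the 5 opposite profiles of the control lambs, 10 of 10 had the same sign in the gossypol lambs and 5 passed the exact permutation test, both over these 10 relations and over the 20 of both diets. Of all profiles, 48.3% had a positive and 51.7% a negative r in the gossypol lambs. The share of all profiles that would pass was not computed. The 10 profiles vary together in the control lambs, so they are not 10 separate agreements.

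In the gossypol lambs the closest profiles were ENSOARG00000019494 (r = 0.984, 76.4 to 117 CPM) and ENSOARG00000016557 (r = 0.982, 54.7 to 118 CPM). Their likeness in the control lambs was r = 0.941 and r = 0.902. The opposite profiles were ENSOARG00000020278 (r = -0.965, 3.03 to 12.4 CPM) and ENSOARG00000015876 (r = -0.954, 0.551 to 2.98 CPM), with r of -0.488 and -0.505 in the control lambs. All of these IDs are without a symbol in the tables.

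The locus had more close and opposite profiles than the median profile in the control lambs and fewer in the gossypol lambs. In the control lambs 2850 profiles had r of at least 0.7 and 3149 had r of at most -0.7, together 33.5% of the other profiles. The median profile had 13.2%, and 91.5% of the profiles had fewer than CYP4F. In the gossypol lambs the numbers were 713 and 642, together 7.56%, beside 12.3% for the median profile, and 27.7% of the profiles had fewer. Without H01 the gossypol numbers were 1209 and 1088, together 12.8% beside 16.9% for the median profile of the same 8 lambs, and 37.3% of the profiles had fewer. A profile that steps between the 2 clusters of control lambs enters the control numbers, and the part of the clusters in them was not tested. The level of CYP4F followed the first principal component in the control lambs (r = 0.929, description only) and did not pass the test in the gossypol lambs (r = 0.318, exact permutation adjusted p = 0.425).

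Profiles near CYP4F in one diet tended to lie on the same side in the other. Of the 50 profiles closest in the control lambs, 50 had a positive r in the gossypol lambs, with a median of 0.749, where 48.3% of all profiles were positive and the median was -0.0207. Of the 50 opposite in the control lambs, 48 were negative in the gossypol lambs with a median of -0.563, beside 51.7% of all profiles. From the gossypol lambs to the control lambs, 44 of the 50 closest were positive with a median of 0.867, and 47 of the 50 opposite were negative with a median of -0.808, where 46.9% of all profiles were positive, 53.1% negative and the median was -0.0777. The profiles at r of at least 0.7 in both diets numbered 423, which is 14.8% of those in the control lambs and 59.3% of those in the gossypol lambs, beside 3.98% and 15.9% of all profiles at that r in the gossypol and the control lambs. Those at r of at most -0.7 in both diets numbered 390, or 12.4% and 60.7%, beside 3.58% and 17.6% of all profiles. Profiles that vary together are not independent of each other, so no test was attached to these counts.

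**Figure D4:**
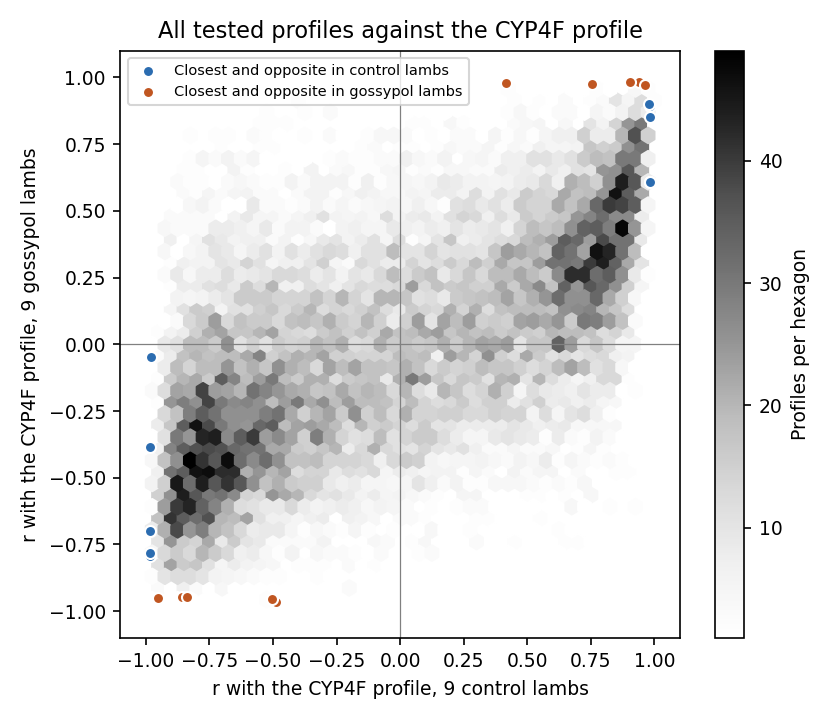
Pearson r with the CYP4F profile in the 9 control lambs (horizontal axis) against r in the 9 gossypol lambs (vertical axis) for 17921 distinct profiles, with darker hexagons holding more profiles and coloured points for the 5 closest and 5 opposite profiles of each diet. The upper right corner holds the 423 profiles at r of at least 0.7 in both diets and the lower left corner the 390 at r of at most -0.7 in both.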

How the data were processed

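Testis RNA of 18 lambs was measured by single-end poly-A sequencing. According to the methods, the authors trimmed reads with Trim Galore 0.4.4, aligned them to Oar_v3.1 with TopHat2 2.1.1, assembled transcripts with Cufflinks 2.2.1 and counted reads per gene with HTSeq. The strand setting is not given in the sources used here. The deposited values are raw counts per ID, 1 table per lamb.

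From these, edgeR 4.0.16 (R 4.3.3) gave TMM-scaled CPM and the quasi-likelihood test of diet over 18640 IDs that passed filterByExpr (minimum count 10, minimum total 15), with Benjamini-Hochberg adjustment. Correlations used log2 CPM with a prior count of 2 and collapsed identical IDs to 17922 profiles. The 2-sided exact permutation test used all 362880 pairings of 9 lambs, and the smallest p it allows is 2.8e-06. It was planned for both diets, with adjustment over both. No p-value for the control lambs is printed, because those lambs form clusters of 5 and 4, and the p-values of the gossypol lambs were adjusted over the relations of that diet alone (17 for the named genes, 10 for the profiles chosen in the control lambs, 3 for library measures), a choice made after seeing the data. The scripts were tested on simulated data. Poisson intervals cover counting error only.

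The named genes are the 4 members, 17 further genes, and the 2 closest and 2 opposite profiles of each diet. The study's text names the 17 genes apart from GFRA3. They were paired with IDs through labelled points of a plot in earlier work. Other genes that the study names are not reported here. Members and lists were chosen with earlier results of these data known. The lists of eicosanoid pathway genes and of cell type markers were not used here, because 0 of the 35057 genes of the RefSeq table carried an Ensembl ID. The alternatives were RLE scaling, no filter, a filter of 1 CPM in 9 lambs, DESeq2 1.42.0, limma 3.58.1 voom, the edgeR exact test, collapsed IDs, covariates, other prior counts, Spearman's rho and single lambs left out.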

Additional observations from a re-analysis of the deposited data

Results flagged for a closer look

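The share of a library's counts taken by its 10 highest IDs was 4.62% in control lamb H44, while the other 8 control lambs lay between 6.72 and 8.82%. By Dixon's criterion at the 95% level H44 stood apart, the only lamb to do so among 42 group measures examined, and chance flags about 1 in 20 groups. H44 was also the control lamb with the lowest CYP4F level (18.7 CPM) and with the lowest ADAM11 level. Without it the log2 fold change of the locus was -1.72 in place of -1.60. The part of the H44 library in the overlap of the diets was not tested.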

How the results depend on the processing

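The diet difference of CYP4F lay between -1.66 and -1.57 on the log2 scale under 7 of 9 other settings. These 7 were counted as unchanged because they lay within 0.70 of the main value. That width is the SD of log2 CPM between gossypol lambs and not the error of the fold change. It moved to -0.44 with ADAM11 as covariate and to -0.68 with the first principal component. The number of IDs called between the diets at a false discovery rate of 10%, 332 by edgeR's quasi-likelihood test, was 2206 with DESeq2, 1732 with the edgeR exact test, 0 with limma-voom (4360 at an unadjusted p under 0.05) and 2289 with the total count as covariate. It was 0 with ADAM11 or the first principal component as covariate (296 and 334 at an unadjusted p under 0.05). With single lambs left out it was 0 to 3591, 3591 being without H44, and where it was 0 between 3095 and 3931 IDs had an unadjusted p under 0.05. The cause was not tested.

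In the gossypol lambs 1 named gene passed with adjustment over that diet alone, and 0 (without H25) to 2 with 1 lamb left out. Over the 34 relations of both diets 6 passed, and 3 (without H10, H12, H41 or H48) to 8 with 1 lamb left out. Without H01, 1209 profiles had r of at least 0.7 and 1088 had r of at most -0.7, and over all single lambs the counts ran from 740 to 1209 and from 681 to 1088. Of the 10 profiles chosen in the control lambs, 5 passed in the gossypol lambs, and 4 to 6 with 1 gossypol lamb left out. The planned count over 20 relations, 12, with 7 (without H44) to 13 with single lambs left out, includes relations read in the clustered control lambs and is not used. The r of VSIG1 in the gossypol lambs turned to -0.0044 with a prior count of 0.5 and ranged from -0.24 to 0.617 with single lambs left out, being negative in 4 of 9 sets. In the gossypol lambs, with adjustment over the 34 relations, MAP3K15 and SMOC2 passed by Pearson's r and not by Spearman's rho. LRRC8B and MAGEA10 passed there by rho only. No paired analysis was possible because the lambs of the 2 diets are separate animals with no shared number. With 136 counts in the shallowest case, depth did not limit the level of the locus, while 12 to 121 counts limit profiles such as XLOC_013357. In the gossypol lambs, low counts also limit MAGEA10 (38 to 112), SLC4A5 (20 to 50) and VSIG1 (14 to 41). PRND (15 to 189), MAGEB18 (16 to 117) and SMOC2 (33 to 893) had low counts in some of these lambs. Among the control lambs, low counts limit SMOC2 (4 to 139), SLC47A1 (10 to 72) and further named genes.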

Other observations

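In the gossypol lambs PRND had r = 0.348 with CYP4F over 9 lambs. Without H08 and H41, the 2 lambs farthest from the median CYP4F level, r was 0.839. With 1 lamb left out r lay between 0.181 and 0.527, and the relation passed in 0 of 9 sets. The r of PRND thus depended on which lambs were included. Its counts were low, with 15 in H25, 19 in H35 and 31 in H47.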
